A study of Mus musculus with 21 samples.

Results

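The cytosolic ribosomal protein genes were followed on arrays of whole right lung from 3 inbred mouse strains given bleomycin. Members were all probe sets annotated with exactly 1 gene symbol that names a protein of the cytosolic ribosome (Rpl or Rps and a number, Rplp0, Rplp1, Rplp2 or Rpsa), without Rps6 kinases and pseudogenes. The rule found 48 of the 12393 genes that a probe set named alone, with 100 of the array's 22626 probe sets. Of these, 39 probe sets of 20 genes belonged to the large subunit, 50 of 20 genes to the small subunit, 2 of 2 genes (Rplp0 and Rplp2) to the stalk, and 9 of 6 genes to paralogs. A further 102 probe sets named a ribosomal protein together with other symbols, were not members and are described only where stated.

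The ribosome has a small subunit, which reads the messenger RNA, and a large subunit, which joins amino acids, and each holds a fixed set of proteins on a core of ribosomal RNA. Each protein is in general needed in a single copy, and most of their mRNAs start with a pyrimidine tract, the TOP motif, through which mTOR signalling controls their translation more than their amount. A few genes have paralogs with a different regulation, such as Rps27l, a copy of Rps27 that is known as a target of p53 and acts on Mdm2, and Rpl22l1, a copy of Rpl22 that Rpl22 itself holds down. Several unassembled ribosomal proteins, Rpl11 and Rps7 among them, are known to bind Mdm2 and stabilise p53 when ribosome assembly is disturbed. Bleomycin breaks DNA, a cause of p53 activation, and injures the lung.

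The study ran 21 arrays, each with RNA pooled from 3 to 5 mice. Controls of A/J, C57BL/6 and C3H/HeJ were 1 male and 1 female pool per strain, with a control treatment not given in the sources used here. At 3 weeks after bleomycin from an osmotic minipump, C57BL/6 and C3H/HeJ had 1 male pool at 100 and 1 female pool at 125 mg/kg, and A/J had males at 80 and 100 and females at 100 and 125 mg/kg. At 6 weeks A/J and C3H/HeJ had 1 male pool at 100 and 1 female pool at 125 mg/kg, and C57BL/6 had 1 female pool at 125 mg/kg. Moribund C57BL/6 mice, with no time given, were 1 male pool at 100 and 1 female pool at 125 mg/kg. The mice's ages were not stated in the labels. Sex and dose ran together in every treated group except A/J at 3 weeks, so they cannot be told apart there, and no array held a single mouse.

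Array medians ran from 58.4 to 111 as deposited and were brought to 1 level by quantile normalization. Lung markers were high on all 21 arrays, with log2 signals of 12.56 to 12.86 for Sftpc (surfactant protein C), 12.64 to 12.92 for Scgb1a1 (club cell secretory protein) and 11.25 to 12.08 for Ager (type 1 alveolar cells). The female-specific transcript Xist ran from 6.63 to 8.73 on the 10 male arrays and from 9.29 to 11.91 on the 11 female arrays, with no overlap. Gapdh control probe sets at the 3′ and 5′ ends gave a ratio, which rises with RNA degradation, of 0.770 to 1.34 on 20 arrays and 2.08 on the C3H/HeJ female array at 6 weeks. In bulk tissue, fewer cells of a type and less RNA per cell cannot be told apart.

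Start sites are shown because most mRNAs of this class are known to start with a pyrimidine tract. The letters near the start also differ between the members described below. RefSeq entries on GRCm38.p6 were matched for 42 of the 48 genes, with 50 start sites. Each sequence below runs from 35 bases before the start site to 25 bases from it onward, in the direction of transcription, and capitals mark CTTTC, a pyrimidine run, or CCGGAAG, a sequence of the kind that ETS factors bind, on either strand.
Rps27, chr3:90213624-90213683, minus strand: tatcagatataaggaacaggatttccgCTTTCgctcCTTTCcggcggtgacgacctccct
Rps27l, chr9:66946051-66946110, plus strand: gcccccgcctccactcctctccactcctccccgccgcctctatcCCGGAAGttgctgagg
Rps3a1, chr3:86142644-86142703, minus strand: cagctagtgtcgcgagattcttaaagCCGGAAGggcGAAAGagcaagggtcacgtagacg
Rps7, chr12:28635929-28635988, minus strand: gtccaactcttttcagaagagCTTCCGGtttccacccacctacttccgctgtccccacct
Rps15, chr10:80292396-80292455, plus strand: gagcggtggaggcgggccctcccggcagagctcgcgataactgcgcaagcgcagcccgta
Rpl22, chr4:152325691-152325750, plus strand: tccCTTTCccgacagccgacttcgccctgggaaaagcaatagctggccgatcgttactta
These are the first listed starts where a gene had several. The window of Rps27 held CTTTC at 2 places and no CCGGAAG, that of its paralog Rps27l held CCGGAAG and no CTTTC, and that of Rps15 held neither. Over windows of 300 bases (250 before the start), CTTTC on either strand was found at 82.0% of the 50 members' starts and at 57.3% of all 32851 starts. On the sense strand within 25 bases before and 35 after the start the shares were 30.0% and 7.7%. CCGGAAG on either strand was found at 42% of the members' starts and at 8.9% of all starts in the 300 base window. These matches describe letters in a window, with no test. A match of CTTTC is not by itself a TOP motif.

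Of the 100 members, 84 probe sets of 45 genes passed a filter that left out the dimmest 33.3% of all probe sets by mean signal. The 16 left out were dim on average over all 21 arrays and included the only probe sets of Rpl14, Rpl3l and Rpl39l. The dimmest kept member was Rps24 (1455195_at) with a mean log2 signal of 6.45, at percentile 45.3 of all probe sets. Just outside the filter lay Rps20 (1421935_at) and Rps9 (1426958_at) at 5.86. Signals are log2 of the normalized value plus 16. The brightest members were Rpl41 (1455578_x_at) at 12.52, Rps29 (1415833_x_at) at 12.28 and Rpl38 (1433472_x_at) at 12.19, and the dimmest were Rpl39l (1423327_at) at 4.4, Rps4x (1420303_x_at) at 4.3 and Rpsa (1416196_at) at 4.17. Other probe sets of Rps4x and Rpsa had means of 11.83 and 11.42, so these values are of probe sets and give no order of mRNA amounts. Of the 84 kept members, 64 lay in the brightest 10% of the array and 39 among the brightest 227 probe sets. There, quantile normalization limits how far a value can move. Among the kept members 38 carried the suffix _x_at, which on these arrays marks probe sets with probes that also match other sequences. Ribosomal protein genes have many processed pseudogenes, so such a signal can hold more than 1 transcript.

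The members varied less than most probe sets. Their median residual SD after fitting groups and sex was 0.14 on the log2 scale, against 0.21 for the 15084 probe sets tested, and the median range of the 10 group means was 0.44 against 0.66. The members were also brighter (median 11.11 against 7.48), and what part of the difference goes with brightness was not tested. The median correlation over the 21 arrays between pairs of kept members was 0.14 over 3486 pairs, given as a description, since all members share the scaling of their array. All 84 members had a change of less than 0.5 in size at 3 weeks in the mean of the strains.

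**Figure D1:**
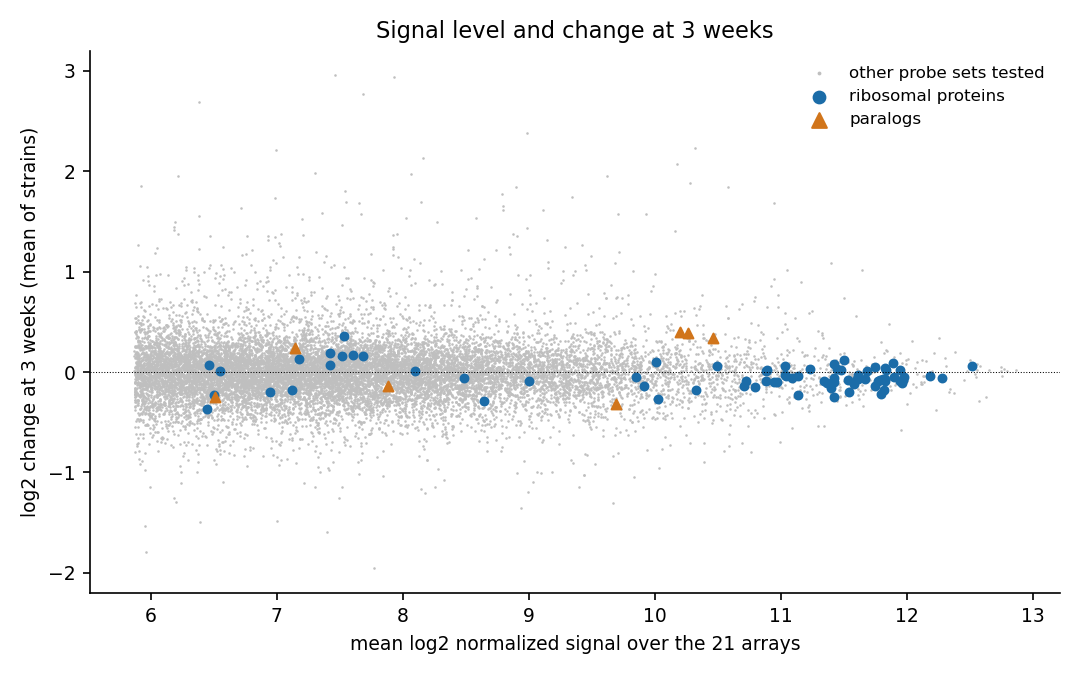
Each point is 1 of the 15084 probe sets tested, with its mean log2 normalized signal over the 21 arrays on the x axis and its log2 change from control at 3 weeks, averaged over the 3 strains, on the y axis. Ribosomal protein probe sets (blue circles) and paralogs (orange triangles) lie mostly at the bright end and within 0.5 of zero. The 3 Rps27l triangles lie above the other triangles, at a signal of 10.20 to 10.47.

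At 3 weeks, averaged over the strains with equal weight, Rps27l rose and 5 probe sets of Rps15, Rps3a1, Rpl7, Rps7 and Rpl22 fell. The model was limma across all arrays with a term for each group and for sex, a call was a Benjamini-Hochberg adjusted p under 0.05 over the 15084 probe sets tested, and SE is the model's standard error. The calls numbered 8 of the 84 members (9.52%, of 6 genes), 3 higher and 5 lower, beside 13.7% of all probe sets tested, of which 6.48% were higher and 7.27% lower. The median change of the members was -0.06 against -0.01 for all probe sets, and 53 members lay below 0 (all probe sets 7802 of 15084). By class, 2 of 36 large subunit and 3 of 39 small subunit probe sets fell and none rose, while the calls upward were all of the paralog Rps27l. The deposited scaling, under which the median of all probe sets shifted to -0.27, gave 0 higher and 26 lower calls among members beside 17.2% of all probe sets called, and scaling to 1 median gave 3 higher and 1 lower beside 12.8%. Relative to the median of all probe sets the members' median was -0.05 with quantile normalization, -0.09 as deposited and -0.06 with 1 median. Leaving out the C57BL/6 male control left 2 calls, the A/J male control or the C3H/HeJ male control 4, and either C57BL/6 array at 3 weeks or the C3H/HeJ female control 5.

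**Figure D2:**
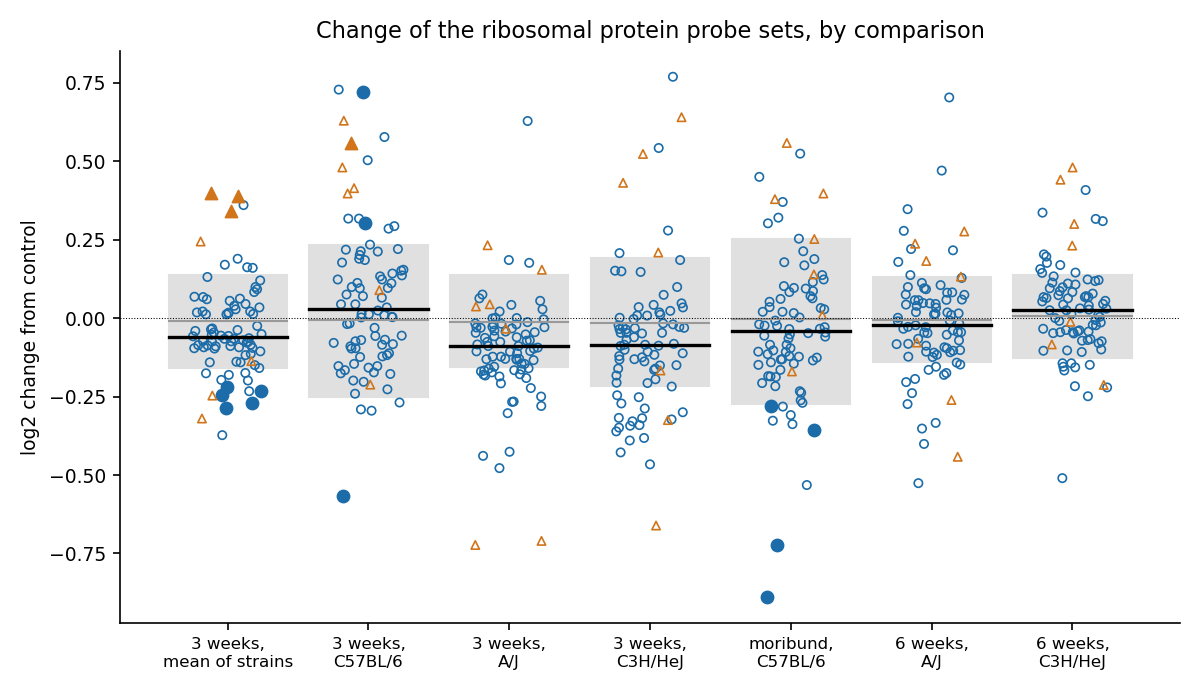
Each point is 1 of the 84 ribosomal protein probe sets, with its log2 change from the control of its strain on the y axis and the comparison on the x axis. Circles are ribosomal proteins and triangles paralogs, filled where the adjusted p was under 0.05. Black lines are the members' medians, and grey boxes and lines are the middle 50% and the median of all probe sets tested. The members' medians in these 7 comparisons lie between -0.09 and 0.03.

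Rps27l had 3 probe sets, and all 3 rose in the mean of the strains. On 1450925_a_at the controls were 10.23 (male) and 9.92 (female) in A/J, 10.09 and 10.09 in C57BL/6, and 9.88 and 9.94 in C3H/HeJ. At 3 weeks the arrays were 10.29 (male, 80 mg/kg), 10.14 (male, 100 mg/kg), 10.30 (female, 100 mg/kg) and 10.50 (female, 125 mg/kg) in A/J, 10.50 and 10.52 in C57BL/6, and 10.43 and 10.43 in C3H/HeJ. In C57BL/6 and C3H/HeJ both treated arrays lay above both controls, while in A/J the male array at 100 mg/kg lay between the controls. The mean change was 0.39 (SE 0.07, limma adjusted p = 0.00196), 1.31-fold. The other probe sets gave 0.40 (SE 0.09, limma adjusted p = 0.00679) on 1435429_x_at and 0.34 (SE 0.09, limma adjusted p = 0.0177) on 1423254_x_at. Within strains the changes on 1450925_a_at were 0.52 in C3H/HeJ, 0.41 in C57BL/6 and 0.23 in A/J. The other probe sets changed less in A/J, by 0.15 on 1435429_x_at and 0.04 on 1423254_x_at (limma adjusted p = 0.774 and 0.966). On both of these the A/J female array at 100 mg/kg lay below both controls. Only C57BL/6 on 1423254_x_at passed the test by itself (0.56, SE 0.16, limma adjusted p = 0.0363), and it lost the call without any 1 of the 4 arrays compared (0.41 to 0.70, adjusted p 0.0699 to 0.265). The 3 C3H/HeJ values were 0.64, 0.52 and 0.43, with limma adjusted p of 0.055, 0.0565 and 0.215. The difference between strains in the change of Rps27l was not called by limma for any pair, and the smallest unadjusted p among the 3 probe sets was 0.0274, for 1423254_x_at between C57BL/6 and A/J (difference 0.52, SE 0.21, limma adjusted p = 0.286).

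The Rps27l calls on 1450925_a_at and 1435429_x_at held without each of the 14 arrays in turn, with adjusted p up to 0.0104 and 0.027. That on 1423254_x_at was lost without the female control of A/J or C3H/HeJ, the male control of C57BL/6, or the female 3 week array of C57BL/6 or C3H/HeJ, with changes of 0.29 to 0.33 and adjusted p of 0.0515 to 0.065. With the values as deposited all 3 calls were lost, at 0.09, 0.09 and 0.05, where the median of all probe sets stood at -0.27. At 6 weeks the fitted changes were 0.24, 0.28 and 0.18 in A/J and 0.30, 0.48 and 0.44 in C3H/HeJ for 1450925_a_at, 1435429_x_at and 1423254_x_at, none called. The moribund C57BL/6 arrays gave 0.38, 0.25 and 0.14, again with no call. The sequence above shows the start of Rps27l, and Rps27 itself (1460699_at), a dim probe set with a mean of 7.18, had a mean change of 0.13 (SE 0.21, limma adjusted p = 0.736) with values of 6.51 to 8.45 over the 21 arrays.

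Of 30 listed p53 target genes other than Rps27l, 23 were tested. At 3 weeks in the mean of the strains 11 rose and 2 fell (median 0.21), beside 6.48% and 7.27% of all probe sets. Cdkn1a, the cell cycle inhibitor, rose by 1.95 (SE 0.11, limma adjusted p = 2.22e-08) and Phlda3 by 1.19 (SE 0.07). The changes of Rps27l were smaller in size than those of both, which were named for having among the smallest p of the list. They lay above the median of the list, 0.21. Whether the change of Rps27l is linked to p53 was not tested.

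Rps3a1, a protein of the small subunit near the exit of the mRNA, fell at 3 weeks. On 1422475_a_at the controls were 12.01 and 11.85 in A/J, 12.02 and 11.98 in C57BL/6, and 11.89 and 11.83 in C3H/HeJ, male first. At 3 weeks the values were 11.60 and 11.56 (males) and 11.86 and 11.82 (females) in A/J, 11.69 and 11.72 in C57BL/6, and 11.73 and 11.72 in C3H/HeJ. The treated arrays lay below both controls in C57BL/6 and C3H/HeJ, and in A/J 1 of 4 lay just above the female control. The change was -0.22 (SE 0.06, limma adjusted p = 0.0161), and it lost the call without the male control of any of the 3 strains (adjusted p up to 0.0726).

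Rps15, which is needed for export of the small subunit from the nucleus, fell on 1 of its 2 probe sets. On 1416089_at the C3H/HeJ controls were 11.59 and 11.61, those of C57BL/6 11.57 and 11.46 and those of A/J 11.58 and 11.60. The 3 week arrays were 11.13 and 11.21 for C3H/HeJ, 11.43 and 11.42 for C57BL/6, and 11.37, 11.45, 11.39 and 11.31 for A/J. Every treated array lay below both controls of its strain. The change was -0.24 (SE 0.06, limma adjusted p = 0.013), lost only without the C57BL/6 male control (adjusted p = 0.0551). The other probe set, 1416088_a_at, gave -0.10 (SE 0.08, limma adjusted p = 0.468).

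Rpl7, a large subunit protein, fell on 1426162_a_at, where controls ran from 11.22 to 11.41 and the 8 arrays at 3 weeks from 10.86 to 11.26. The C57BL/6 female array at 3 weeks, 11.26, lay above the female control of 11.25, and in A/J and C3H/HeJ all treated arrays lay below both controls. The change was -0.23 (SE 0.06, limma adjusted p = 0.021), lost without the male control of any strain or the male 3 week array of C57BL/6 or C3H/HeJ (adjusted p up to 0.0869). Rps7 on 1435593_x_at changed by -0.27 (SE 0.09, limma adjusted p = 0.0478) and Rpl22 on 1448398_s_at by -0.29 (SE 0.09, limma adjusted p = 0.0492). The other probe sets of these genes were not called, at -0.16 and -0.18 for Rpl7, -0.18 for Rps7 (1419364_a_at) and -0.05 (SE 0.15, limma adjusted p = 0.883) for Rpl22 (1416603_at). The Rps7 and Rpl22 calls stood at the edge of the threshold and were lost without 11 of the 14 arrays in turn, with adjusted p up to 0.187 for Rps7 and 0.161 for Rpl22. The calls held for Rps7 without the A/J female control or either female A/J array at 3 weeks, and for Rpl22 without either female A/J array or the male C3H/HeJ array at 3 weeks.

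**Figure D3:**
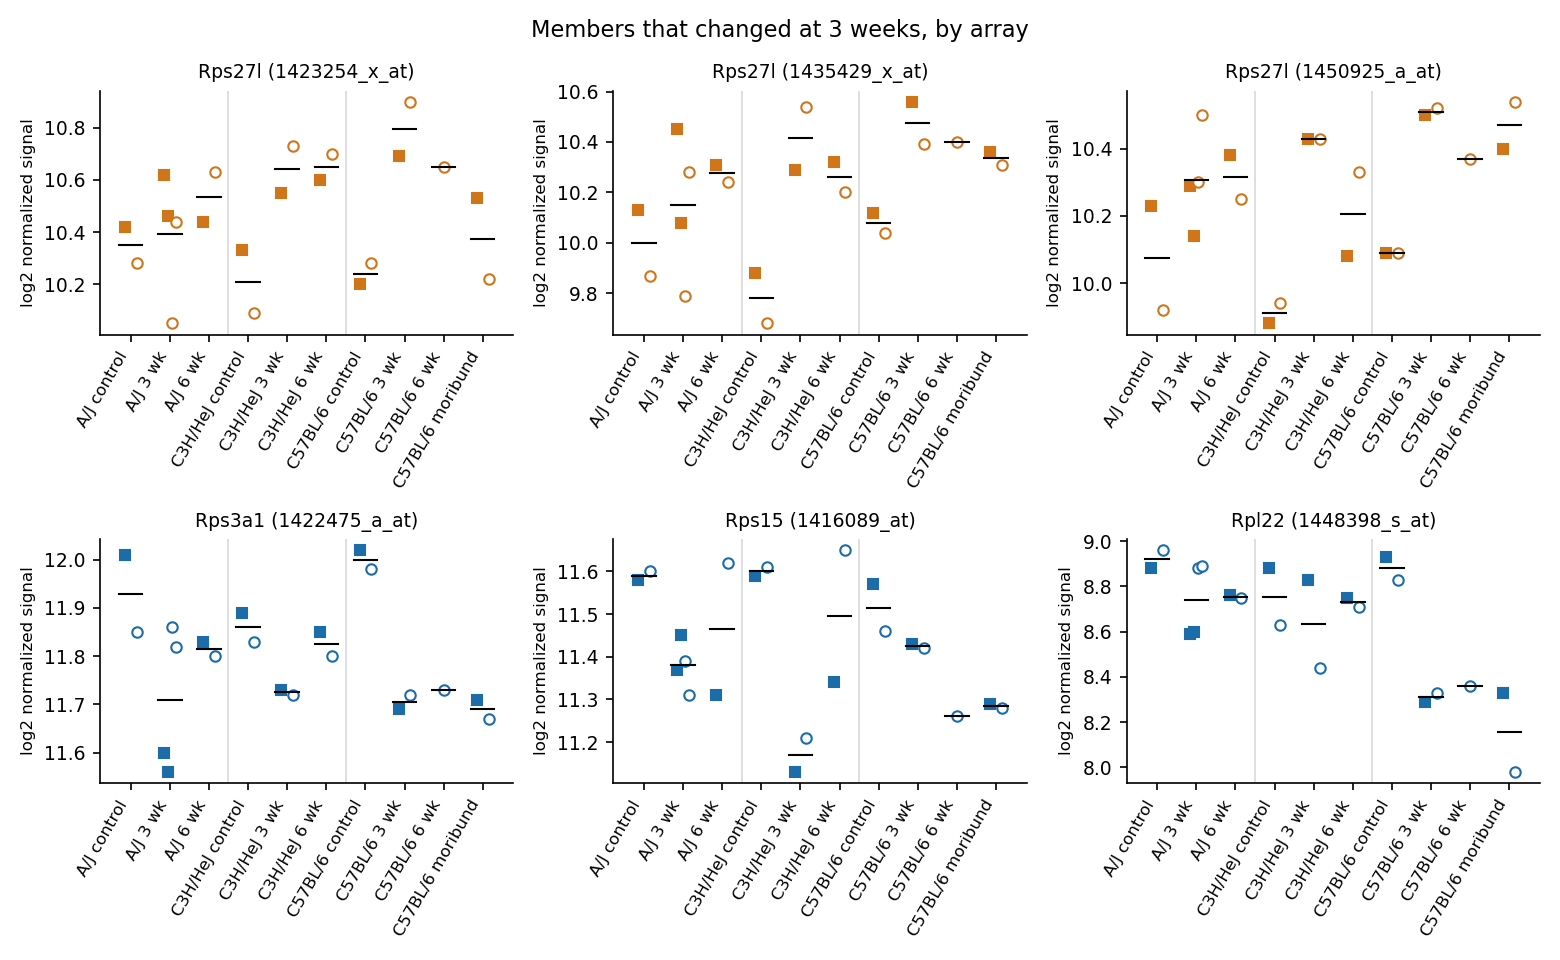
Log2 normalized signal (y axis) of 6 probe sets on each array, by strain and stage (x axis), with filled squares for male pools, open circles for female pools and lines for group means; the y axes differ between panels. The Rps27l probe sets are higher at 3 weeks than in controls on all C57BL/6 and C3H/HeJ arrays, while the group means of Rps3a1, Rps15 and Rpl22 are lower at 3 weeks in each strain.

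Beside these changes, markers of some other cells moved strongly at 3 weeks. In the mean of the strains 14 of 18 tested macrophage and 8 of 8 tested neutrophil genes rose, beside 6.48% of all probe sets. In the same comparison 8 of 9 tested B cell and 16 of 24 tested heart and skeletal muscle genes fell, beside 7.27%. Of 12 tested T and NK cell genes 2 fell, and of 16 tested lung epithelium and endothelium genes 4 fell, with none higher in either list. Averaged over the list, macrophage genes ran from -0.98 to -0.59 on the control arrays and from -0.11 to 0.85 at 3 weeks, each relative to its mean over the 21 arrays. B cell genes ran from 0.03 to 0.68 in controls and from -1.09 to 0.03 at 3 weeks, muscle genes from 0.17 to 0.74 and from -0.79 to 0.22, and neutrophil genes from -0.99 to -0.40 and from 0.04 to 1.18. Their part in the changes of the ribosomal protein genes was not tested.

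Within strains few members were called. In C57BL/6 at 3 weeks 4 of 84 members were called (4.76%), 3 higher and 1 lower, beside 10.7% of all probe sets called, 5.66% higher and 5.04% lower. Rps25, a small subunit protein used in internal initiation, rose by 0.72 (SE 0.20, limma adjusted p = 0.0248) on 1430978_at. Its controls were 7.28 (male) and 7.03 (female), the 3 week arrays 8.04 and 7.72, and the moribund arrays 7.63 and 7.74, all above the controls. Rps2, a protein at the mRNA entry of the small subunit, rose by 0.30 (SE 0.08, limma adjusted p = 0.0282), from 11.69 and 11.70 to 11.98 and 12.01. Rpl22 on 1448398_s_at fell by 0.57 (SE 0.17, limma adjusted p = 0.0395), from 8.93 and 8.83 to 8.29 and 8.33, while 1416603_at gave -0.12 (SE 0.27). The calls on Rps2 and Rpl22 were lost without any 1 of the 4 arrays (adjusted p 0.0952 to 0.198, and 0.111 to 0.246), and that on Rps25 held only without the female 3 week array. As deposited limma called none of the 84, beside 3.1% of all probe sets. The members' median was 0.03, against -0.01 for all probe sets, and -0.02 without the male 3 week array. As deposited the members' median was -0.08 where that of all probe sets was -0.18, and with 1 median it was 0.17 and 0.05, so the sign of the plain median turned as deposited while the difference from all probe sets remained above 0 (0.10 and 0.11).

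In A/J at 3 weeks no member was called by limma, beside 0.842% of all probe sets called. At an unadjusted p under 0.05 stood 9 of 84 members, beside 1517 of 15084 probe sets. Of the 84 members, 70 lay below 0 (all probe sets 7844 of 15084) and the median was -0.09, with differences from the median of all probe sets of -0.08, -0.07 as deposited and -0.04 with 1 median. The largest fitted change was Rpl22l1, a paralog of Rpl22, at -0.72 (SE 0.20, limma adjusted p = 0.15). Its A/J controls were 10.16 and 10.05 and its 3 week arrays 9.59, 9.16, 8.96 and 9.84, all below the controls. The same probe set gave -0.33 in C3H/HeJ, 0.09 in C57BL/6 and -0.32 (SE 0.13, limma adjusted p = 0.117) in the mean of the strains.

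In C3H/HeJ at 3 weeks no member was called by limma, beside 1.7% of all probe sets. At an unadjusted p under 0.05 stood 13 of 84 members, beside 2243 of 15084 probe sets. The median was -0.09, and 60 of 84 members lay below 0 (all probe sets 7862 of 15084). Relative to all probe sets the median was -0.07, -0.18 as deposited and -0.17 with 1 median. Over the 3 strains, 25 of the 84 members (29.8%) lay below 0 in every strain and 9 (10.7%) above 0 in every strain, where all probe sets tested gave 22.7% and 19.8%; the strains share no arrays.

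The stalk, whose P proteins recruit the elongation factors, gave values close to 0 in the mean of the strains: -0.03 for Rplp0 (SE 0.06, limma adjusted p = 0.762) and 0.02 for Rplp2 (SE 0.06). Rpsa on 1448245_at gave 0.08 (SE 0.09), and Rpl11, a member of the 5S particle, 0.06 (SE 0.11, limma adjusted p = 0.769). Rps19, whose loss causes Diamond-Blackfan anaemia in people, gave -0.06 (SE 0.07), Rps4x -0.09 (SE 0.05), Rps3 0.04 (SE 0.07) and Rpl4 -0.09 (SE 0.05), none called. Rpl39, a small protein of the exit tunnel, had a change of 0.36 with an SE of 0.27, so the estimate is uncertain.

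In moribund C57BL/6 mice 4 of 84 members were called, all lower, beside 12.8% of all probe sets called, 5.86% higher and 6.9% lower. Rpl22 on 1448398_s_at fell by 0.72 (SE 0.17, limma adjusted p = 0.00931), with 8.33 and 7.98 against the controls' 8.93 and 8.83. The other Rpl22 probe set, 1416603_at, gave -0.01 (SE 0.27, limma adjusted p = 0.99) there, with 9.53 and 10.35 against 9.89 and 10.00. Rpl7 fell by 0.89 (SE 0.23, limma adjusted p = 0.0169) on 1426163_x_at, with 10.07 and 9.54 against 10.73 and 10.65, and by 0.36 (SE 0.10, limma adjusted p = 0.0319) on 1415979_x_at, with 11.26 and 11.19 against 11.59 and 11.57. Rps4x fell by 0.28 (SE 0.09, limma adjusted p = 0.047), with 11.60 and 11.69 against 11.96 and 11.88. In each the moribund arrays lay below both controls. Without the moribund female array or either control the Rpl22 and Rpl7 calls were lost, while that of Rps4x was lost without any array (adjusted p up to 0.227). The members' median was -0.04, and the moribund arrays differed in it: without the male array it was 0.08, and without the female array -0.12 (all 84 members). Between moribund and 3 week mice no member was called by limma, beside 0.00663% of all probe sets. At an unadjusted p under 0.05 stood 10 of 84 members, beside 1433 of 15084 probe sets.

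At 6 weeks limma called no member in A/J, beside 0.0994% of all probe sets, or in C3H/HeJ, beside 0.0663%. At an unadjusted p under 0.05 stood 1 member in A/J, beside 709 of 15084 probe sets. In C3H/HeJ there were 3, all of Rps27l, beside 672 of 15084. The medians were -0.02 and 0.03, the latter turning to -0.06 as deposited. Leaving out 1 array at a time gave -0.06 (without the A/J male array at 6 weeks) to 0.03 (without the female) in A/J, which changes sign, and 0.001 to 0.05 in C3H/HeJ. The C57BL/6 group at 6 weeks was 1 array with no replicate, and its differences are given without a test. Its members had a median difference from the control mean of -0.16 against -0.03 for all probe sets, and 1 of 84 members, Rps24 on 1456628_x_at (-0.76), passed 1.5-fold, beside 11.9% of all probe sets, 5.08% lower. The other kept probe sets of Rps24 were also lower on that array, by smaller amounts, at -0.42, -0.28, -0.20 and -0.07. The array was a female pool, and against the female control alone the medians were -0.175 for members and -0.032 for all probe sets. There Rps24 on 1456628_x_at gave -0.62. Rps27 on 1460699_at, at -0.30 from the control mean, gave -0.65 and so also passed 1.5-fold.

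The largest differences between group means among the members lay between strains. Rps9, a small subunit protein, had the widest, 3.46 over the 10 group means. On 1434624_x_at the 7 C57BL/6 arrays ran from 8.99 to 9.87 with a median of 9.48, the 8 A/J arrays from 6.08 to 6.86 with a median of 6.38 and the 6 C3H/HeJ arrays from 6.10 to 6.77 with a median of 6.45, so C57BL/6 did not overlap the others at any stage. Among controls C57BL/6 was higher than A/J by 3.23 (SE 0.28, limma adjusted p = 2.17e-06) and than C3H/HeJ by 3.03 (SE 0.28, limma adjusted p = 4.65e-06). The other kept Rps9 probe set, 1433689_s_at, did not show this: it ran from 11.03 to 11.29 in A/J, 10.77 to 11.03 in C57BL/6 and 10.97 to 11.20 in C3H/HeJ, and its control differences were -0.29 (limma adjusted p = 0.158) and -0.22. The 2 probe sets of the same gene thus disagreed in direction and size. The cause, such as a sequence difference under a probe, was not tested.

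The kept probe set of Rps6, the small subunit protein that S6 kinase phosphorylates, was likewise higher in C57BL/6. The other, 1453466_at with a mean of 5.06, was left out as dim, so no further probe set of the gene was tested. The cause of the difference was not tested here either. On 1416142_at the C57BL/6 arrays ran from 7.62 to 8.20 and those of A/J and C3H/HeJ from 6.03 to 7.0, with no overlap, and among controls C57BL/6 exceeded A/J by 1.28 (SE 0.20, limma adjusted p = 0.00134) and C3H/HeJ by 1.21 (SE 0.20, limma adjusted p = 0.00216). Rps4l, a paralog of Rps4x, was low in A/J: on 1452730_at its arrays ran from 4.32 to 6.06 against 7.33 to 8.19 in C57BL/6 and 6.72 to 7.71 in C3H/HeJ. The 3 A/J group means, 4.68 to 5.39, lay below the level at which probe sets were left out as dim, so the probe set was kept only through the other strains, and its differences are a description without support from the test. Among controls C57BL/6 was above A/J by 2.05 with the offset of 16, by 2.72 with an offset of 1 and by 1.26 with an offset of 64, so its size depends on the offset. Without the A/J male control, which left the female at 6.06, it was 1.28 and neither Rps4l call was made, and without the C57BL/6 female or the C3H/HeJ male control 1 of the 2 was lost. Without the C57BL/6 female control Rps6 lost its call against C3H/HeJ (adjusted p = 0.0517). Members called were 3 of 84 between C57BL/6 and A/J (all higher in C57BL/6, Rps4l among them) beside 3.17% of all probe sets, 1.98% higher, then 2 between C57BL/6 and C3H/HeJ (both higher in C57BL/6) beside 2.5%, 1.32% higher, and 1 between A/J and C3H/HeJ (Rps4l, lower in A/J) beside 1.01%, 0.57% lower.

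**Figure D4:**
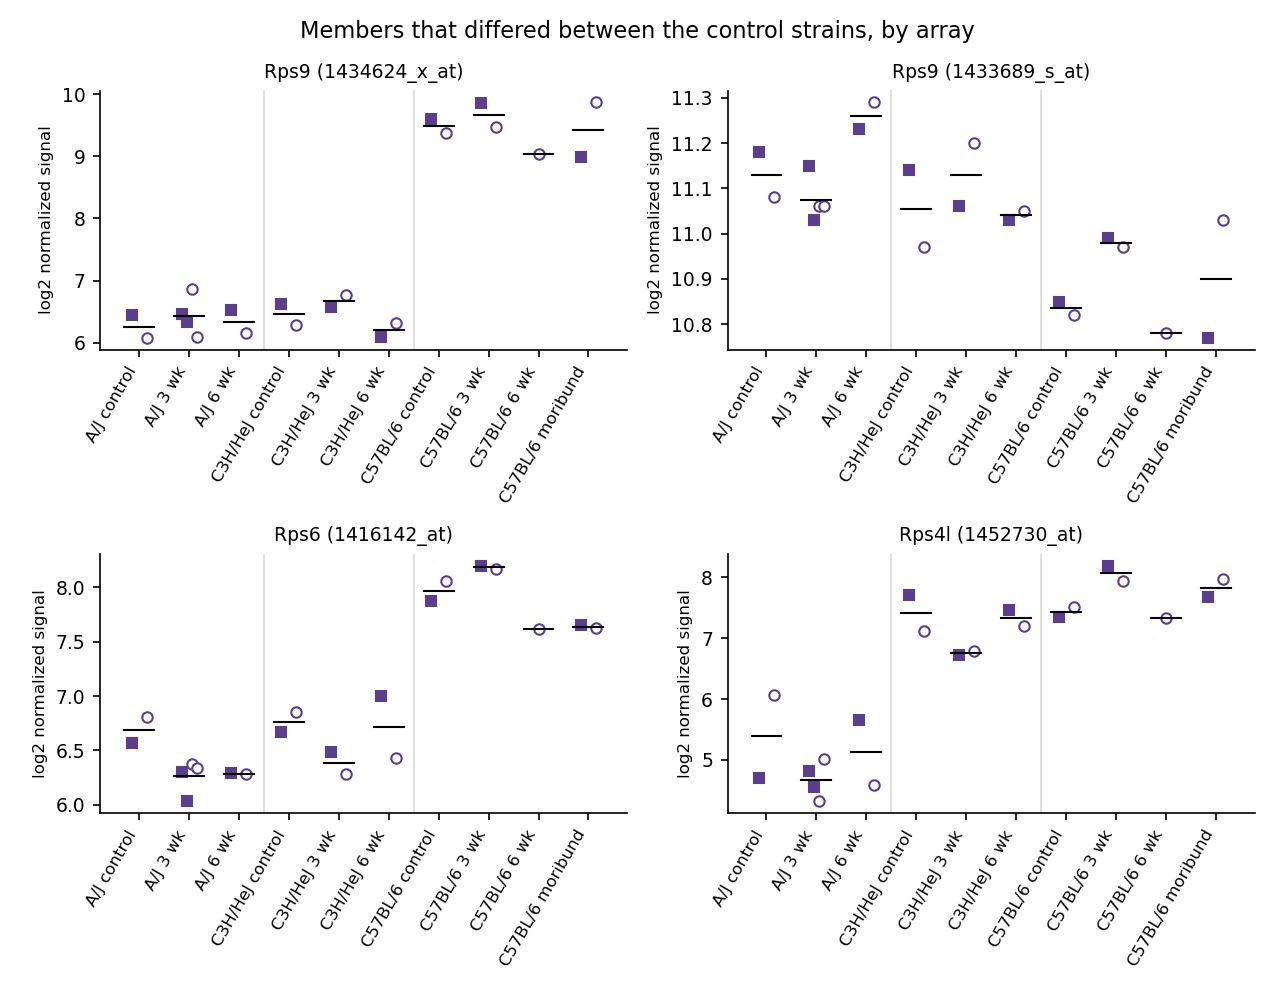
Log2 normalized signal (y axis) of 4 probe sets on each array, by strain and stage (x axis), with filled squares for male pools, open circles for female pools and lines for group means; the y axes differ between panels. C57BL/6 arrays stand apart on Rps9 1434624_x_at and on Rps6, A/J arrays are low on Rps4l, and Rps9 1433689_s_at runs from 10.77 to 11.29 over all arrays.

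The change at 3 weeks differed between strains for no member after adjustment. Limma called 0 of 84 for C57BL/6 against A/J, beside 1.07% of all probe sets. At an unadjusted p under 0.05 stood 13 of the 84, beside 2084 of all 15084 probe sets. It called 0 for C57BL/6 against C3H/HeJ, beside 0.152%, with 16 at an unadjusted p under 0.05 beside 2131 of 15084. For A/J against C3H/HeJ it called 0, beside 0%, with 1 at an unadjusted p under 0.05 beside 518 of 15084. The smallest p for C57BL/6 against C3H/HeJ was Rps10 on 1456497_x_at, with a difference of 0.56 (SE 0.14, limma adjusted p = 0.0906). The members' median differences were 0.12, 0.10 and -0.01. The last turned sign under both other scalings, to 0.07 as deposited and 0.18 with 1 median. Between males and females no member was called by limma, beside 0.053% of all probe sets. At an unadjusted p under 0.05 stood 1 member, beside 452 of 15084 probe sets.

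By array, the members' median relative to each member's own mean ran from -0.11 to 0.10, where the SD between replicate arrays of a group was 0.053. The 6 controls ran from 0.003 to 0.07, and the A/J and C3H/HeJ arrays at 3 weeks from -0.11 to -0.01. They did not overlap, but the nearest values, 0.003 (C3H/HeJ female control) and -0.014 (A/J female, 125 mg/kg), differed by less than that SD. Both C57BL/6 arrays at 3 weeks (0.10 and 0.06) lay within or above the controls. The lowest were the A/J male array at 3 weeks and 100 mg/kg (-0.11), the C3H/HeJ female array at 3 weeks (-0.11) and the C57BL/6 array at 6 weeks (-0.10), and the highest was the C57BL/6 male array at 3 weeks. The pools of moribund mice lay apart, at -0.08 (male) and 0.09 (female). As deposited, relative to the median of all probe sets on each array, the range was -0.26 to 0.18. There the A/J female arrays at 3 weeks (0.023 and 0.044) lay among the controls (0.007 to 0.076), so the separation was lost for them.

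**Figure D5:**
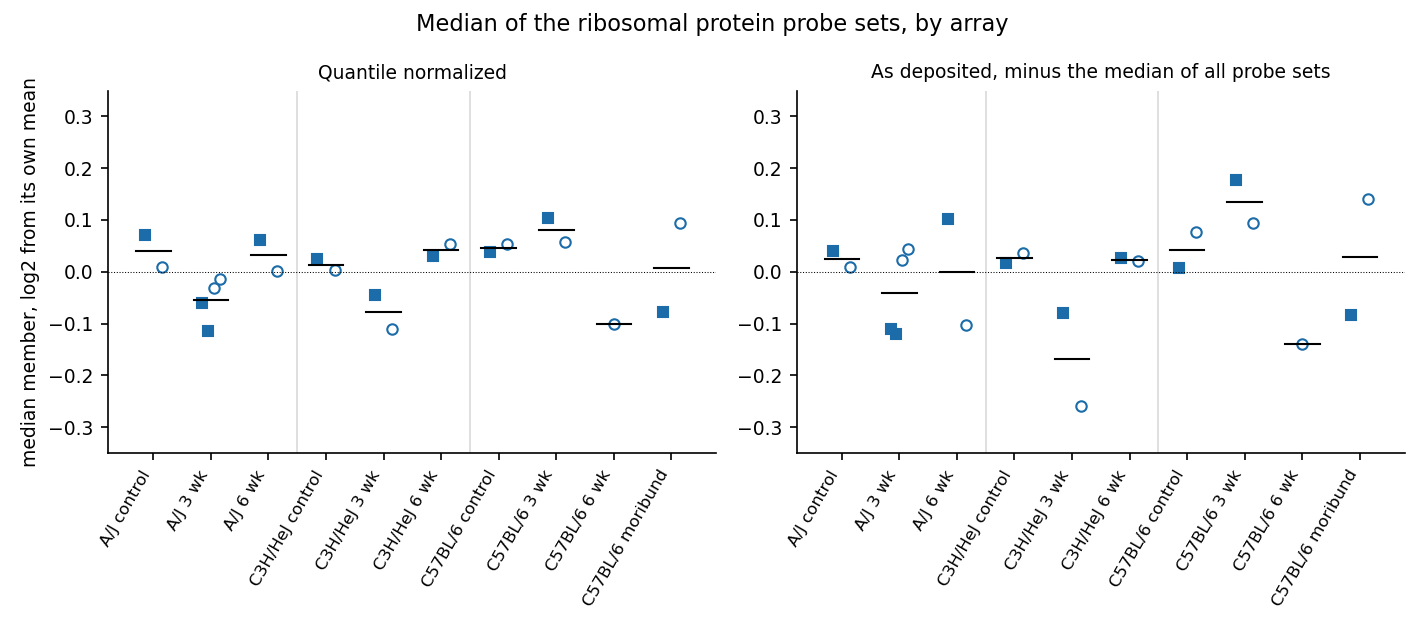
Median over the kept ribosomal protein probe sets of the log2 signal relative to each probe set's own mean (y axis), by array, strain and stage (x axis), with filled squares for male and open circles for female pools and lines for group means. The left panel is quantile normalized and the right panel as deposited minus the median of all probe sets; values run from -0.11 to 0.10 on the left and from -0.26 to 0.18 on the right.

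Genes that work with the ribosome are given at 3 weeks in the mean of the strains, beside the 6.48% of all probe sets that were higher and the 7.27% that were lower. Of 17 tested elongation factors and other TOP mRNAs, 1 fell, Eif4b (-0.28, SE 0.08, limma adjusted p = 0.0198), which helps unwind the mRNA. Of 61 ribosome biogenesis genes 3 rose, Noc2l (0.46) and Ddx21 (0.37) among them, and 1 fell, Nop10 (-0.23). Of 40 initiation factors 3 rose and 3 fell, among the latter Eif4a2, an RNA helicase (-0.43, SE 0.09, limma adjusted p = 0.00514). Of 74 mitochondrial ribosomal proteins, which serve the ribosome of mitochondria, 1 fell, Mrpl39 (-0.33). Fau, a small subunit protein made as a ubiquitin-like fusion that the symbol rule does not take in, gave -0.03. Of the 92 tested probe sets that name a ribosomal protein together with other symbols, 1 rose and 9 fell, with a median of -0.09.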

How the data were processed

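The deposited values were array intensity on a linear scale, 1 value per probe set, per the labels from Trizol RNA of pooled mice on an Affymetrix array. The summarising software, its background step and its scaling were not given in the sources used here. The members and lists were chosen with earlier results of these data known. Gene symbols came from the array annotation, brought to current symbols by gene ID (20351 of 20380 probe sets with 1 symbol; 691 had several and 1555 none); 64 control probe sets were left out. Values were quantile normalized, turned into log2 of the value plus 16, and the dimmest 33.3% left out. A single model with 10 groups and sex was fitted to the 21 arrays by limma 3.58.1 under R 4.3.3 (eBayes with trend, 10 residual degrees of freedom, 16.4 after shrinkage), two-sided, Benjamini-Hochberg over 15084 probe sets. The C57BL/6 array at 6 weeks was set against the control mean and against the female control alone. Named were called members, the smallest p where none was called, the brightest and dimmest, those with the largest ranges or disagreeing probe sets, and a fixed list of 29 symbols, of which 19 were members. Alternatives were the deposited scaling, 1 median, other offsets and filters, no sex term, 1 probe set per gene, the Gapdh ratio, only the strains compared, A/J at the doses of the other strains, and each array left out. With mostly 2 arrays a group, their number limited the precision, and p-values measure the spread between pools. Data were also simulated with 200 changed probe sets among 15084. There the procedure recovered 64.5% of 1.5-fold and 95.5% of 2-fold changes in the mean of the strains at 3 weeks. In C57BL/6 at 3 weeks it recovered 0% and 56.5%. The real data gave more calls, 2073 in the mean and 1614 in C57BL/6. The adjusted threshold is stricter where fewer probe sets change, so these shares do not give the recovery in the real data.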

Additional observations from a re-analysis of the deposited data

Results flagged for a closer look

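Groups of 4 arrays were checked for a value far from the others, which was possible only in A/J at 3 weeks. Of 50 probe sets checked, 1 stood out: Rpsa on 1448245_at, at 11.58 on the female array at 100 mg/kg against 11.32, 11.33 and 11.35 on the others. The gap was 0.885 of the range, above Dixon's critical value for 4 values, and chance flags about 1 in 20 such groups.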

How the results depend on the processing

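No paired analysis was possible because the labels link no array of a group with an array of another, and the replicate numbers only name an array. With the values as deposited, limma called 26 members at 3 weeks in the mean of the strains, 0 in C57BL/6 at 3 weeks and 2 in moribund mice. The shares of all probe sets called were 17.2%, 3.1% and 5.36%. The members' medians there were -0.356 in the mean, -0.08 in C57BL/6, -0.411 in A/J and -0.48 in C3H/HeJ at 3 weeks, -0.297 in moribund mice and -0.234 for moribund against 3 weeks. At 6 weeks they were -0.24 in A/J, -0.061 in C3H/HeJ and -0.253 in C57BL/6. For the controls they were 0.222 (C57BL/6 against A/J), 0.189 (C57BL/6 against C3H/HeJ) and -0.044 (A/J against C3H/HeJ), for the differences in response 0.351, 0.394 and 0.065 in the same order, and for males against females -0.153. Scaled to 1 median, the calls were 4 in the mean, 1 in C3H/HeJ and 2 in moribund mice, beside 12.8%, 1.68% and 10.6% of all probe sets. The medians were then 0.167 in C57BL/6 and -0.268 in C3H/HeJ at 3 weeks, and -0.201 for moribund against 3 weeks. They were -0.238 in C57BL/6 at 6 weeks, and -0.124 and -0.086 for C57BL/6 controls against A/J and C3H/HeJ. For the differences in response they were 0.27, 0.426 and 0.176. The cause of these shifts was not tested. For A/J against C3H/HeJ controls the count was 0 with an offset of 1, with the dimmest 50% left out, and with only the arrays of the strains compared. For C57BL/6 at 3 weeks it was 2 with no dim filter, 2 with the Gapdh ratio as a covariate and 0 with only the C57BL/6 arrays, and for moribund mice 2 with no dim filter and 1 with only the C57BL/6 arrays. In C3H/HeJ at 3 weeks it was 1 with no sex term. With 1 probe set per gene, where fewer probe sets are tested, it was 3 in the mean, 1 in C3H/HeJ, 2 in moribund mice and 1 for C57BL/6 against C3H/HeJ controls. With A/J at the doses of the other strains the mean gave 5. Leaving out 1 array at a time gave 2 to 9 calls in the mean, 0 to 2 in C57BL/6 and 0 to 1 in C3H/HeJ at 3 weeks, 0 to 6 in moribund mice, 1 to 2 for C57BL/6 against C3H/HeJ controls, 0 to 1 for A/J against C3H/HeJ controls and 0 to 1 for the difference in response of C57BL/6 and C3H/HeJ. The medians then ran from -0.016 to 0.093 in C57BL/6 at 3 weeks, -0.124 to 0.084 in moribund mice, -0.148 to 0.004 for moribund against 3 weeks, -0.043 to 0.065 for C57BL/6 against A/J controls and 0.078 to 0.19 for the difference in response of C57BL/6 and A/J. Where an array left a group with 1, that array was assumed to vary like the others. The number of calls over all probe sets also changed with the array left out. Of single named probe sets, 266 of the values under an alternative kept their side of the threshold, 110 lost the call and 0 reversed. On bright probe sets the small number of arrays limits the precision.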

Other observations

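Lists of other genes of translation in C57BL/6 are given beside all probe sets tested, of which 5.66% rose and 5.04% fell at 3 weeks and 5.86% rose and 6.9% fell in moribund mice. Of 17 elongation factors and other TOP mRNAs limma called none at either stage (medians 0.002 and -0.03). At 3 weeks 4 of 61 tested ribosome biogenesis genes rose and none fell (limma, median 0.14), and in moribund mice 4 rose and none fell (median 0.22). Of 74 mitochondrial ribosomal proteins 3 rose at 3 weeks and 2 in moribund mice, and none fell. Of 40 initiation factors 5 rose and 1 fell at both stages. The one that fell was Eif4a2, a helicase of the cap-binding complex, by 0.89 (SE 0.17, limma adjusted p = 0.0022) at 3 weeks and by 1.29 (SE 0.17, limma adjusted p = 8.81e-05) in moribund mice, while Eif4e2, a cap-binding protein, rose by 0.58 (SE 0.15, limma adjusted p = 0.0175) and 0.73 (SE 0.15, limma adjusted p = 0.00333). Both stages were set against the same 2 control arrays.

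Of 13 tested genes of the amino acid response, 2 rose and 1 fell at 3 weeks in the mean of the strains, beside 6.48% and 7.27% of all probe sets. Psat1, an enzyme of serine synthesis, rose by 0.97 (SE 0.12, limma adjusted p = 3.81e-05) and Sesn2, an inhibitor of mTORC1, by 0.67 (SE 0.11, limma adjusted p = 0.000477), while Atf4, the transcription factor of the response, fell by 0.33 (SE 0.10, limma adjusted p = 0.0348).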
